A study of Macaca mulatta with 304 samples.

Results

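The genes described here are 10 genes whose RNA is made by megakaryocytes and carried into the blood by platelets. They were chosen by symbol, as ITGA2B, ITGB3, GP1BA, GP9, GP6, CLEC1B, TREML1, TUBB1, PF4 and PPBP. Of these 10 genes, 9 had a row under their own symbol among the 21070 genes of the count table, and all 9 passed the filter on low counts, which kept 13751 genes. PF4 had no row of that name. The RefSeq annotation of the same genome build (Mmul_10) calls the gene LOC703451 platelet factor 4 and calls PF4V1 platelet factor 4 variant 1. Values of these 2 rows are given beside the 9 genes and are counted with none of them, since they were added after the files had been opened.

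Platelets have no nucleus and take their RNA from the megakaryocyte that sheds them, so the platelet RNA in a tube of blood reflects how many platelets are there and how much RNA each still holds. The genes differ in role. Receptors on the platelet surface bind the injured vessel wall and fibrinogen, and TUBB1 is the beta tubulin of the ring that gives the platelet its disc shape. PF4 is a chemokine and PPBP a chemokine precursor, both stored in the alpha granules and released on activation.

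Whole blood was taken from 28 adult rhesus macaques of the Chinese sub-strain, whose thorax alone was irradiated with photons of a linear accelerator. A dose of 9.8 Gy was given to 6 males and 6 females, and 10.7 Gy to 8 males and 8 females. The samples comprised 24 controls, drawn on Day -2 from animals that were irradiated later, samples of Day 3 to 21 (early) from all 28 animals, 95 from after Day 21 to Day 90 (medium) and 53 from later days (late). The controls were the animals' own earlier samples, so time on study, repeated bleeding, the analgesics given after irradiation (tramadol or buprenorphine) and the dexamethasone given for rapid breathing cannot be told apart from radiation. Late samples came from the animals still alive, 12 of them at 9.8 Gy and 4 at 10.7 Gy, and the draws of Day 180, 210, 240 and 270 were all from the same 6 animals.

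The libraries held 2840219 to 23638161 counts (median 8227563). The running numbers in the sample descriptions split them into 3 library series, here called A (120 samples), B (34 samples) and C (150 samples, no number). Of the controls, 20 were in series A and 4 in series C, whereas every sample after Day 21 was in series B or C. Markers of the blood's other cells were present in the controls (all 15 erythroid, 15 neutrophil, 11 monocyte, 10 B cell, 10 T cell and 9 NK cell markers with a row had a median count above 0). Of the 9 endothelial markers, 2 (EMCN and ROBO4) had a median count of 0. The summed level of the 9 was 258 to 515 CPM in the controls. One sample stood apart. It was the last draw, on Day 40, of animal B2007 (10.7 Gy), and all 9 genes were at their highest of all samples there. TUBB1 reached 5130 CPM and PPBP 20533 CPM, against medians of 509 and 1042 CPM in the other 23 samples of that day. The summed level of the 15 erythroid markers in this sample was 346985 CPM, against 2083 to 25910 CPM in the others of Day 40. The medians of the medium window and of Day 40 and the Day 30 to 60 differences are given with and without it. So are the correlations over all samples and those of the changes from control. The sample was in series B, and correlations within that series are given with it only. Calls in the medium window and on Day 40 are also given with it only.

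The stretches of DNA below show the 2 platelet factor 4 rows, because the rows are so alike. LOC703451 lies at chr5:59800623-59801659 on the plus strand and PF4V1 at chr5:59957995-59959277 on the minus strand (Mmul_10). PPBP is a neighbour of LOC703451, at chr5:59794352-59797117 on the plus strand. The longest open reading frame of the RefSeq transcript of LOC703451 has 306 bases. For PF4V1 the transcript model whose frame was nearest to this in length was taken. Its frame also has 306 bases, and the 2 frames differ at 28 of them. Bases 1 to 240 of each are written 5′ to 3′, with the 24 differences among these bases in capitals.
LOC703451: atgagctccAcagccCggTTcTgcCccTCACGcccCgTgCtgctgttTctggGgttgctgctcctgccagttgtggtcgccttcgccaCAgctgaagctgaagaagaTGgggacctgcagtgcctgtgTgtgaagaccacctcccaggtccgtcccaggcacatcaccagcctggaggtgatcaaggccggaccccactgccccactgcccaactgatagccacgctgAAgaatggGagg
PF4V1: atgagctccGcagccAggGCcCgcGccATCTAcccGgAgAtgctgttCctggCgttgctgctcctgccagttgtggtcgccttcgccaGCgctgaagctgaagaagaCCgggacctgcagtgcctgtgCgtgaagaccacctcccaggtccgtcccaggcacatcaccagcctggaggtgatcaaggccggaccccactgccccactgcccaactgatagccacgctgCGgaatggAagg
The whole frames are identical at 90.8% of positions, and the longest stretch without a difference is 99 bases. How a read that matches both rows was counted is not given in the sources used here, and it was not measured.

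The promoters of PPBP and GP1BA are shown because each held a motif of the ETS family of transcription factors, to which FLI1, a regulator of megakaryocytes, belongs. The 200 bases before the annotated start are written 5′ to 3′ on the gene's own strand, with matches to AGGAAG or CGGAAG on either strand in capitals.
PPBP (chr5:59794152-59794351, plus strand): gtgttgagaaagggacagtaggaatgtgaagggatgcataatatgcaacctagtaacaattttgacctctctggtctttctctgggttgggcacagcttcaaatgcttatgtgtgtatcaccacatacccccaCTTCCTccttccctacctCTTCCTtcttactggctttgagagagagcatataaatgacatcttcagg
GP1BA (chr16:4779351-4779550, plus strand): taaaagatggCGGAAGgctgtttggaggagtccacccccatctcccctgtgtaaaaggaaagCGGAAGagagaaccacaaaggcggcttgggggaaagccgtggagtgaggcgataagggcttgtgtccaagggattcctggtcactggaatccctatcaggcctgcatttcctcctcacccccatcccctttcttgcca
In the 250 bases before the start, 3 of the 9 genes held such a match, beside 36.5% of 21055 genes. A GATA motif (AGATAA or TGATAA, either strand) was in 0 of the 9 and in 13.5% of all, and an NF-E2 motif (TGANTCA) in 0 of the 9 and in 5.1% of all. The starts are those of predicted gene models, and a match is a string of letters and not a site that was shown to be bound.

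Before irradiation the genes differed widely in level. Counts are given as CPM, counts scaled to a common library size by the upper quartile, and where genes are compared with each other the level is divided by the length of the gene's exons. PPBP, the precursor of platelet basic protein, had the highest level, with 130 to 1128 CPM per kb in the 24 controls and a median of 412, which ranked 72 of 21070 genes. TUBB1 followed with a median of 101.3 CPM per kb, and it exceeded the next gene, ITGA2B (median 31.6), in 24 of 24 animals. ITGA2B, TREML1 and ITGB3 (medians 31.6, 22.5 and 21.4 CPM per kb) had overlapping ranges, and TREML1 exceeded ITGB3 in 9 of 24 animals only. GP9, CLEC1B, GP6 and GP1BA were lower, with medians of 11.3, 7.64, 3.63 and 2.84 CPM per kb. Within one gene the controls spread from 6.23-fold (TUBB1) to 28.3-fold (CLEC1B) between the lowest and the highest animal. LOC703451 had a median of 254 CPM per kb and PF4V1 of 28.4.

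**Figure D1:**
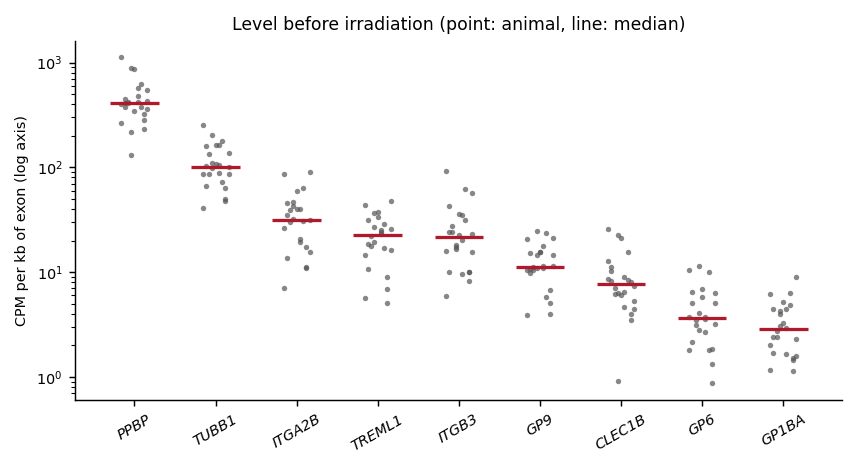
Level of the 9 genes in the 24 control samples of Day -2, in CPM per kb of exon on a log axis. Each point is an animal and each line the median of a gene, which falls from 412 (PPBP) to 2.84 (GP1BA).

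On Day 3 after irradiation RNA of all 9 genes had risen. The median log2 fold change against the same animals' controls was 1.18 (0.97 to 1.44) over the 9 genes, beside -0.06 over all genes tested. All 9 genes were called higher, where a call needs an adjusted p of at most 0.05 in the quasi-likelihood test of edgeR and a fold change of at least 1.5. Over all genes, 6.89% were called higher on that day. In bulk blood, more platelets and more RNA per platelet give the same rise and cannot be told apart, and neither can a loss of RNA from other cells.

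Among the receptors, ITGA2B and ITGB3 encode the 2 chains of the fibrinogen receptor. ITGA2B had 37.4 to 476 CPM in controls (median 166) and 153 to 868 CPM on Day 3 (median 339.9). The ranges overlapped, but in each of the 24 animals the level on Day 3 was above its own control (log2 fold change 1.14, SE 0.16, edgeR adjusted p = 1.23e-06). ITGB3, whose protein also pairs with another alpha chain in other cells, went from a median of 93.6 CPM (25.6 to 406) to 157 CPM (86.3 to 546) and was higher in 22 of 24 animals.

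GP1BA and GP9 belong to the receptor for von Willebrand factor. GP1BA had 3.01 to 23.8 CPM in controls (median 7.51) and 6.06 to 36.98 CPM on Day 3 (median 18.8), higher in 24 of 24 animals. GP9 was also higher in every animal, with a median of 11.5 CPM (3.99 to 25.3) before and 29.0 CPM (7.01 to 66.8) after. GP6, the collagen receptor, had the smallest rise on Day 3, a log2 fold change of 0.97 (SE 0.13, edgeR adjusted p = 3.62e-07), from a median of 5.60 CPM (1.34 to 17.6) to 11.9 CPM (3.54 to 49.2). CLEC1B, which binds podoplanin, rose from a median of 8.14 CPM (0.980 to 27.7) to 18.1 CPM (4.30 to 36.8) and was higher in 23 of 24 animals.

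The largest changes were those of TREML1 and TUBB1. TREML1, a receptor that alpha granules carry to the surface when platelets are activated, went from a median of 74.7 CPM (16.8 to 157) to 171 CPM (67.8 to 433), with a log2 fold change of 1.44 (SE 0.13, edgeR adjusted p = 1.94e-10). TUBB1 went from 409.7 CPM (165 to 1025) to 1065 CPM (573 to 3026), a log2 fold change of 1.43 (SE 0.12, edgeR adjusted p = 4.24e-11). Both were higher in 24 of 24 animals, TUBB1 by 1.32-fold or more. PPBP went from a median of 957 CPM (303 to 2619) to 2199.9 CPM (1007 to 4930), higher in 23 of 24 animals. Of the platelet factor 4 rows, LOC703451 had a log2 fold change of 1.45 (SE 0.12) and PF4V1 of 1.20 (SE 0.11).

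**Figure D2:**
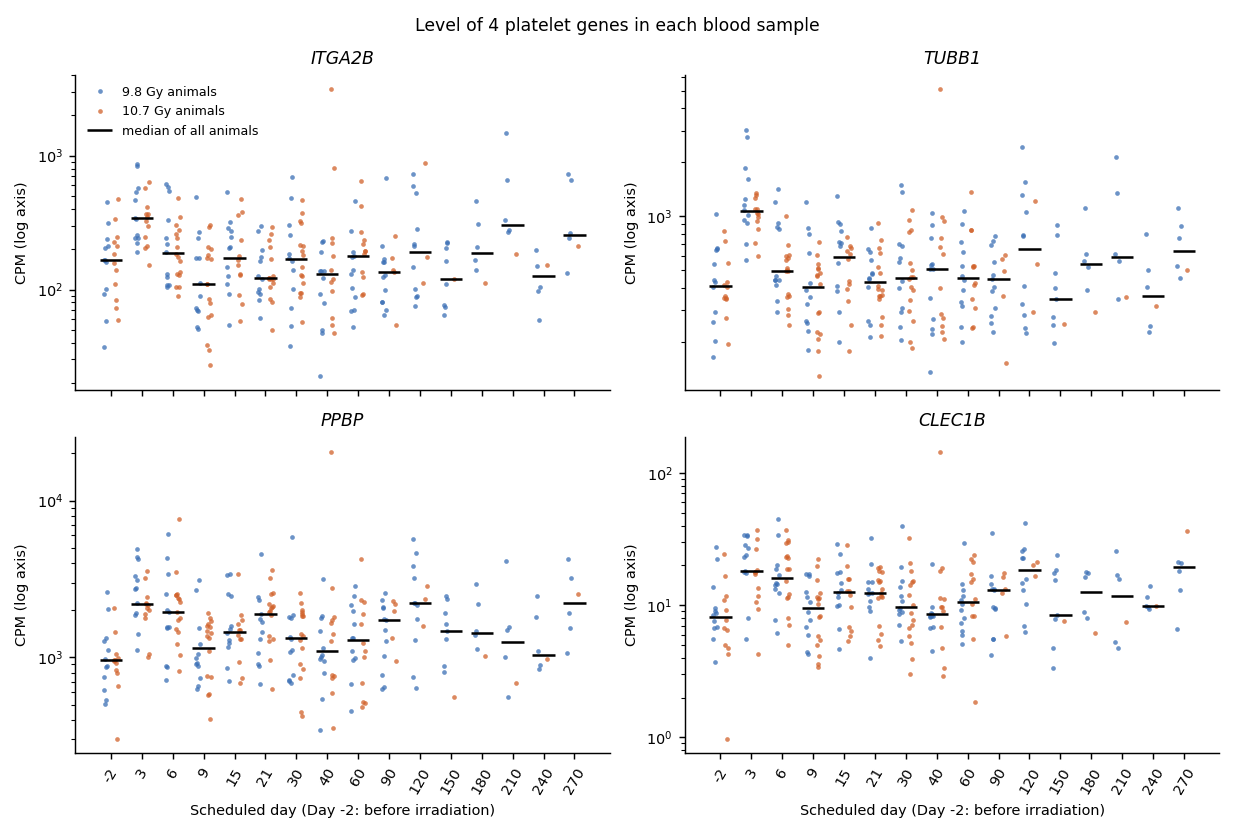
CPM of ITGA2B, TUBB1, PPBP and CLEC1B on a log axis in each sample of the scheduled days. Points are animals coloured by dose and black lines are medians over all animals. For TUBB1 the median is 1065 on Day 3 against 409.7 on Day -2, and the single highest point of each panel is the Day 40 sample of animal B2007.

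Other lists of platelet genes moved with them on Day 3, less as a whole. Called higher were 17 of 26 platelet surface receptors (1 lower, median log2 fold change 0.73), 13 of 24 granule proteins (median 0.73), 11 of 34 signalling proteins and enzymes (median 0.35), 7 of 24 cytoskeletal proteins (median 0.37) and 7 of 24 megakaryocyte regulators (median 0.23). Markers of other cells moved on the same day. Of 15 erythroid markers 14 were called higher (median 0.92), and their summed level was 1879 to 13132 CPM in controls (median 6823) and 3994 to 32575 CPM on Day 3 (median 11560). Of 11 monocyte markers 8 were higher (median 0.79), and the summed level went from a median of 2420 to 3514 CPM. All 10 B cell markers were lower (median -1.32). Their part in the rise of the platelet genes was not tested. In all 24 animals the control and the Day 3 sample were in the same library series.

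The rise was short. From Day 3 to Day 6, 7 of the 9 genes fell past the threshold (1.55% of all genes did), and 4 did without the animal as a block, with TUBB1 at a log2 fold change of -1.14 (SE 0.11, lower in 22 of 24 animals). The exceptions were CLEC1B (-0.22, SE 0.12, edgeR adjusted p = 0.188) and PPBP (-0.32, SE 0.11, edgeR adjusted p = 0.037). Accordingly, 2 genes were still called higher than the controls on Day 6, against 6.04% of all genes. They were PPBP (0.94, SE 0.13, edgeR adjusted p = 2.27e-06) and CLEC1B (0.88, SE 0.15, edgeR adjusted p = 2.86e-05).

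From Day 6 to Day 9 all 9 genes fell again, 7 of them past the fold threshold (1.51% of all genes). CLEC1B changed most (-0.88, SE 0.11), in 26 of 28 animals, while GP6 (-0.54) and TUBB1 (-0.46) stayed under a 1.5-fold change. On Day 9 the genes lay near or below the controls, with a median log2 fold change of -0.32 (-0.62 to 0.14), beside 0.00 over all genes tested. ITGA2B was called lower (-0.62, SE 0.22, edgeR adjusted p = 0.022), with 27.3 to 488 CPM (median 87.3) against 37.4 to 476 CPM (median 166) in the controls. The ranges coincided, and 16 of 24 animals were below their own control. It was the only 1 of the 9 genes called lower, beside 2.43% of all genes, and it was not called without the animal as a block (-0.49, edgeR adjusted p = 0.141). On the same day 14 of 15 erythroid markers were higher (median 1.19).

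By Day 15 the genes had risen again. Against Day 9, 6 of the 9 were called higher (2.64% of all genes), from ITGB3 (0.62, SE 0.18) to GP9 (0.85, SE 0.21), and CLEC1B (0.50), PPBP (0.48) and TUBB1 (0.53) rose by less than 1.5-fold with an edgeR adjusted p of 0.00191 to 0.0049. Without the animal as a block 2 of the 9 were called. Against the controls, PPBP was the 1 gene called higher on Day 15 (0.63, SE 0.13) and on Day 21 (0.72, SE 0.12), beside 5.11% and 7.65% of all genes. On Day 21 it was at 628 to 4592 CPM in 28 animals (median 1883) against 303 to 2619 CPM in the controls, and it was higher in 22 of the 24 animals with a control. ITGB3 had a value of -0.45 (SE 0.18, edgeR adjusted p = 0.0339) on that day, below the fold threshold.

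The timing was alike in most animals. Over the 24 animals drawn on Day -2, 3, 6, 9, 15 and 21, TUBB1 and TREML1 had their highest level on Day 3 in 21 animals each, and CLEC1B in 14, with Day 6 the highest in 8 more. No animal had its highest level of any of the 9 genes on Day -2 or Day 9. The lowest level of ITGA2B was on Day 9 in 12 animals and on Day -2 in 7, whereas that of PPBP was on Day -2 in 15 and on Day 9 in 8.

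**Figure D3:**
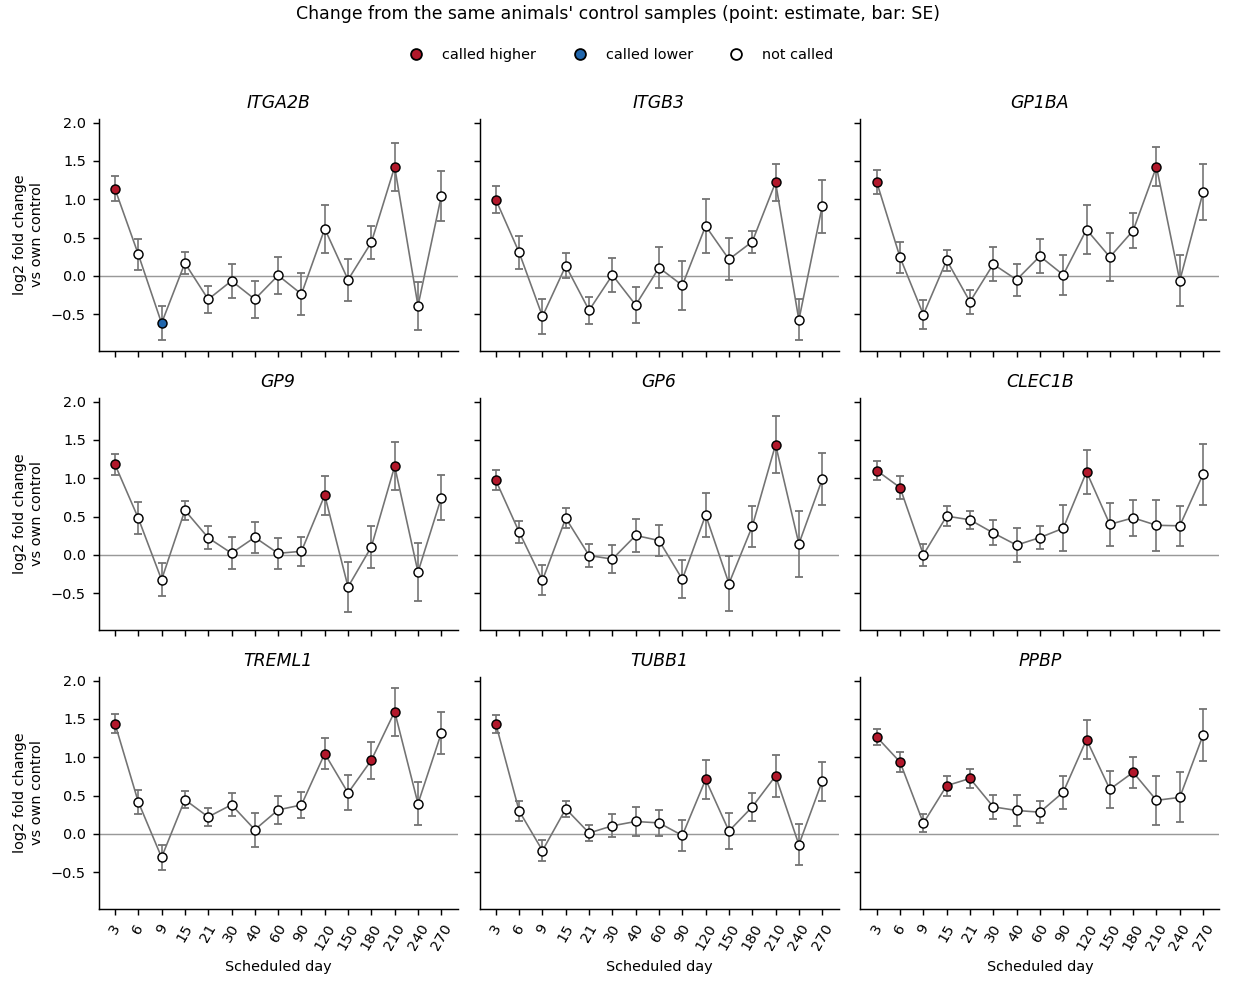
Log2 fold change of each gene against the same animals' controls on each scheduled day with at least 6 animals (points, with SE as bars). Red points are called higher, the blue point (ITGA2B, Day 9, -0.62) is called lower and white points are not called. All 9 genes are red on Day 3 and most are red on Day 210, where 6 animals were drawn.

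Over the whole early window, with the counts of an animal summed, 5 of the 9 genes were called higher, against 5.79% of all genes. PPBP changed most (0.85, SE 0.10, higher in 23 of 24 animals), followed by CLEC1B (0.70), TREML1 (0.67), GP9 (0.62) and TUBB1 (0.60). ITGA2B, GP1BA and GP6 had values of 0.41, 0.41 and 0.43 with an edgeR adjusted p of 0.025, 0.023 and 0.00221, under the fold threshold, and ITGB3 had 0.33 (SE 0.16, edgeR adjusted p = 0.0937). On the deposited log2 values tested with limma 2 of the 9 were called, and 2 were called with the library series as a term. Among the other lists, 4 of 26 surface receptors, 2 of 24 granule proteins, 6 of 34 signalling proteins, 2 of 24 cytoskeletal proteins and 5 of 24 megakaryocyte regulators were higher, and none was lower.

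The genes of these lists with the largest early rises were higher in 21 to 24 of the 24 animals. P2RY12, the ADP receptor that antiplatelet drugs block, went from a mean of 5.12 CPM to 9.48 CPM (log2 fold change 0.92, SE 0.07) and was higher in 24 of 24 animals. PTGIR, the prostacyclin receptor, and CD36 had values of 0.90 and 0.68. GUCY1B1 and GUCY1A1, the subunits of the nitric oxide receptor guanylate cyclase, had 1.11 (SE 0.06) and 0.85 (SE 0.08), both higher in 24 of 24 animals, and GNG11 had 1.10. MMRN1, the granule protein multimerin, rose by 0.92. PKHD1L1 (1.13) and MYL9 (0.78) led the cytoskeletal list.

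Of the megakaryocyte regulators, GATA1 (1.21, SE 0.10) and GFI1B (0.92) were among those that rose in the early window. GATA1 and GFI1B are also used by red cell precursors, and GATA1 is in both lists. All 15 erythroid markers were called higher in this window (median 1.64), with a summed level of 3994 to 97878 CPM against 1879 to 13132 CPM in controls. Their part in the changes of the platelet genes was not tested.

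In the medium window 0 of the 9 genes were called in either direction by edgeR, 3 of them had an unadjusted p under 0.05, and DESeq2 and limma also called 0. Over all genes 5.75% were called. The median log2 fold change was 0.23 (0.06 to 0.48), and 0.19 without the Day 40 sample of animal B2007. PPBP (0.48, SE 0.14, edgeR adjusted p = 0.0058) and TREML1 (0.42, SE 0.15, edgeR adjusted p = 0.0234) passed the adjusted p alone. On Day 30, 40, 60 and 90 taken singly no gene of the 9 was called by edgeR, DESeq2 or limma, and 2, 0, 0 and 2 of them had an unadjusted p under 0.05, while 5.9%, 6.92%, 4.23% and 7.06% of all genes were called. On Day 40 the median was 0.13 with the sample of animal B2007 and -0.03 without it. With the library series as a term, 2 of the 9 were called higher in the medium window. Within 1 series only 4 animals could be compared, and 2 of the 9 were called in the medium window and 2 on Day 30. These 4 animals were all of the higher dose, so the lower dose was not tested within 1 series. The direction of these calls and the share of all genes called in that fit are not given here. The counts can therefore not be set beside those of all animals.

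After Day 90 the genes were high again. All 9 were called higher in the late window in 14 animals, with a median of 0.81 (0.61 to 1.12), where 14% of all genes were called higher and 18.5% lower and the median of all genes was -0.13. PPBP was at 303 to 2619 CPM in the controls (median 872) and at 1056 to 4598 CPM late (median 1888), each animal's late samples being averaged. The groups overlapped, but 13 of 14 animals were above their own control, with a log2 fold change of 1.12 (SE 0.18, edgeR adjusted p = 8.34e-05). TREML1 went from a median of 70.3 CPM (16.8 to 146) to 114.4 CPM (48.3 to 272), also higher in 13 of 14 animals (1.10, SE 0.19).

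The other 7 genes had late log2 fold changes from 0.61 (TUBB1, SE 0.19) to 0.95 (CLEC1B, SE 0.24), and between 9 (ITGB3) and 12 of the 14 animals were above their control. TUBB1 was the nearest to the fold threshold, and it fell below 1.5-fold when animal B1001, B1005, B1006 or B1506 was left out (0.53 to 0.56). Without the animal as a block 5 of the 9 were called. With the library series as a term, in a fit that took an animal's draws singly, all 9 were called, with a median of 1.00. The share of all genes called in that fit is not given here, so the count cannot be set beside it. Late samples and controls of 1 series came from too few animals to be compared within it. LOC703451 had a late value of 0.62 (SE 0.15) and PF4V1 of 0.90 (SE 0.16).

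In the other platelet lists more genes were called higher than lower late. Called higher were 12 of 26 surface receptors (2 lower), 16 of 24 granule proteins (1 lower), 15 of 34 signalling proteins (1 lower), 9 of 24 cytoskeletal proteins (1 lower) and 9 of 24 megakaryocyte regulators (2 lower). P2RY12 rose by 1.12 (SE 0.17, 14 of 14 animals), MPIG6B, an inhibitory receptor of platelets, by 1.11, and TSPAN9 by 1.10. EGF (1.29) and SRGN (1.22) rose in the granule list, although SRGN is also abundant in white cells, and PRKG1 (1.63), GNAQ (1.32) and RGS18 (1.28) led the signalling list. MYLK (1.33), ZYX (1.09) and ABLIM3 (1.04) led the cytoskeletal proteins.

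KIT, a receptor of progenitors and mast cells, had the largest late value among the regulators (1.86, SE 0.35), ahead of JAK2 (1.16) and NFE2 (1.14). The genes that fell included ICAM2 (-0.68), ITGA6 (-0.67), VPS33B (-0.82), ACTN1 (-0.70), IKZF2 (-0.84) and MAFK (-0.61), and several of these are also expressed by lymphocytes. In the same samples all 10 B cell markers were lower (median -1.98), 6 of 10 T cell markers were lower and 11 of 14 neutrophil markers were higher (median 1.297). The summed neutrophil markers ranged from 946 to 8669 CPM in controls and from 1736 to 17642 CPM late. Whether these changes bear on the platelet genes was not tested.

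Within the late window the level went up and down. On Day 120 5 of the 9 genes were called higher (12.7% of all genes), on Day 150 0 by edgeR (2 with an unadjusted p under 0.05, 2 called by DESeq2, 0 by limma, beside 31.5% of all genes) and on Day 180 2, PPBP and TREML1 (8.81% of all genes). Without the animal as a block 0 were called on Day 180. On Day 210 7 were called (12.8% of all genes), led by TREML1 at 1.60 (SE 0.31), GP6 at 1.44 (SE 0.37) and GP1BA at 1.42 (SE 0.25). TREML1 had 69.6 to 594 CPM in the 6 animals of that day (median 149). PPBP (0.44, SE 0.32) and CLEC1B (0.39, SE 0.33) were the 2 not called, each higher in 3 of 6 animals. TUBB1 lost its call when animal B1004, B1503 or B2502 was left out.

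The same 6 animals were drawn on Day 180, 210, 240 and 270. From Day 180 to Day 210, 4 of the 9 genes were called higher (3.05% of all genes), among them GP9 (1.07, SE 0.27), but 0 by limma and 0 without the animal as a block. From Day 210 to Day 240 5 were called lower (4.64% of all genes). ITGA2B fell by 1.79 on the log2 scale (SE 0.36) and ITGB3 by 1.78 (SE 0.31), both in 6 of 6 animals. ITGA2B was at 185 to 1486 CPM on Day 210 and at 59.04 to 197.4 CPM on Day 240, so that the groups overlapped between 185 and 197.4 CPM, while PPBP (-0.01, SE 0.28) and CLEC1B (0.01, SE 0.28) had estimates near 0. In the 4 animals whose samples of both days were of the same library series the median over the 9 genes was -1.39, with 0 called by edgeR and 7 with an unadjusted p under 0.05. The other 2 animals changed from series C to series B between these days. By limma 1 of the 9 was called lower, by DESeq2 7, and without the animal as a block 3. Shares of all genes called in these fits are not given here.

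On Day 240 0 of the 9 were called against the controls by edgeR, DESeq2 or limma, and none had an unadjusted p under 0.05, beside 6.76% of all genes called. On Day 270 all 9 had values between 0.69 and 1.31 and an unadjusted p under 0.05, but 0 were called, with edgeR adjusted p from 0.0751 to 0.126. On that day 1 of 13751 genes (0.00727%) was called at all. DESeq2 called 9 of the 9 higher, beside 10.1% of all genes. Without the filter on low counts edgeR called 2 of the 9 (2.11% of all genes). With the library series as a term, in a fit over the single samples of all days, edgeR called 9 (15.1%). On the deposited values limma called 0 of the 9 and 0 of all genes. Leaving out animal B1003 gave calls for 5 of the 9 on Day 270 (ITGA2B, ITGB3, GP1BA, TREML1 and PPBP, 1.25 to 1.58, beside 5.09% of all genes called higher), and the sample of B1003 on that day was the only 1 of the 6 in series B.

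The doses were compared over days on which both were drawn, as the difference between the groups' changes from control. Within Day 3 to 21, the 8 samples of series B and the 24 of series C were all from animals of 10.7 Gy. Dose and library series can therefore not be fully told apart there. Over Day 3 to 21, 0 of the 9 genes differed past the threshold by edgeR, 2 had an unadjusted p under 0.05, and 0 were called by DESeq2 or limma; over all genes 0% were called. The estimates were mostly smaller at 10.7 Gy, with a median difference (10.7 minus 9.8 Gy) of -0.28 (-0.69 to 0.08). GP9 had the largest. Its mean log2 change was 0.95 ± 0.52 (SD, n = 12) at 9.8 Gy, where 12 of 12 animals were higher, and 0.20 ± 0.55 (SD, n = 12) at 10.7 Gy, where 8 of 12 were. The difference was -0.69 (95% interval -1.07 to -0.31), with an edgeR adjusted p of 0.86.

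GP6 had 0.73 ± 0.56 (SD, n = 12) and 0.10 ± 0.48 (SD, n = 12), a difference of -0.58 (95% interval -0.97 to -0.18, edgeR adjusted p = 0.86). LOC703451 had a difference of -0.60 (95% interval -0.90 to -0.30, edgeR adjusted p = 0.86), with 12 of 12 animals higher at 9.8 Gy and 9 of 12 at 10.7 Gy. PPBP had nearly equal means, 0.85 and 0.82, and its interval ran from -0.44 to 0.34. On Day 9 the median change over the 9 genes was -0.01 in animals of 9.8 Gy and -0.71 in animals of 10.7 Gy, which is given as a description. Over Day 30 to 60 the differences ranged from -0.01 to 0.42 (median 0.18), and without the Day 40 sample of animal B2007 from -0.07 to 0.24 (median 0.05). With and without it, 0 of the 9 were called by edgeR and 0 had an unadjusted p under 0.05, and with it DESeq2 and limma also called 0, where edgeR called 3.93% of all genes.

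Males and females did not differ past the threshold in any of the 9 genes. Over Day 3 to 21 the difference (male minus female) ranged from -0.23 (GP6, 95% interval -0.68 to 0.21) to 0.24 (CLEC1B, 95% interval -0.18 to 0.66), and over Day 30 to 60 from -0.34 to 0.38 (-0.42 to 0.20 without the Day 40 sample of animal B2007). In both spans 0 genes of the 9 were called by edgeR, DESeq2 or limma and 0 had an unadjusted p under 0.05, and over all genes 0% were called. TUBB1 was higher in 12 of 12 females and in 9 of 12 males over Day 3 to 21.

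In the 16 animals of 10.7 Gy, the levels of Day 6, 9 and 21 together were compared between 11 animals whose last draw came before Day 90 and 5 that were drawn on Day 90 or later. The 9 genes were lower by a median of -0.46 (-0.54 to -0.02) in the 11 animals, and 0 were called by edgeR (adjusted p = 1 in each), DESeq2 or limma. None had an unadjusted p under 0.05, and 0% of all genes were called. TUBB1 had 303 to 581 CPM in the 11 animals (median 422) and 216, at the lowest, to 844 CPM in the 5 (median 558). The range of the 5 enclosed that of the 11, and the difference of -0.46 had a 95% interval of -0.97 to 0.04.

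The genes varied together across samples. Over all samples the median Pearson r of log2 CPM was 0.78 among the 36 pairs (0.49 to 0.91). It was 0.85, 0.90 and 0.72 within library series A, B and C and 0.75 in the 24 controls. Over all samples without the highest sample it was 0.76. The value of series B holds that sample. These values are descriptions, since samples of an animal share that animal and all genes of a sample share its library.

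PPBP and CLEC1B stood apart from the other 7 genes, a split that was chosen after the values had been seen and is not tested. Their r with each other was 0.79, and the 7 genes had a median r of 0.83 among themselves, but between the pair and the 7 the median was 0.58 (0.49 to 0.76), or 0.55 without the Day 40 sample of animal B2007. As changes from the animal's own control the same values were 0.87, 0.83 and 0.39, and without the Day 40 sample of animal B2007 they were 0.86, 0.83 and 0.35. The split differed between library series. In series C the median between the pair and the 7 was 0.44, in series A 0.69 and in series B 0.86, where the pair had an r of 0.88 and the 7 a median of 0.92. Series B held 34 samples, among them the Day 40 sample of animal B2007. How far its values rest on that sample was not tested. In series A and B the r of PPBP with TREML1 (0.87 and 0.94) was above that with CLEC1B (0.81 and 0.88). Both genes kept more of their rise on Day 6 and had the smallest changes from Day 210 to Day 240.

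**Figure D4:**
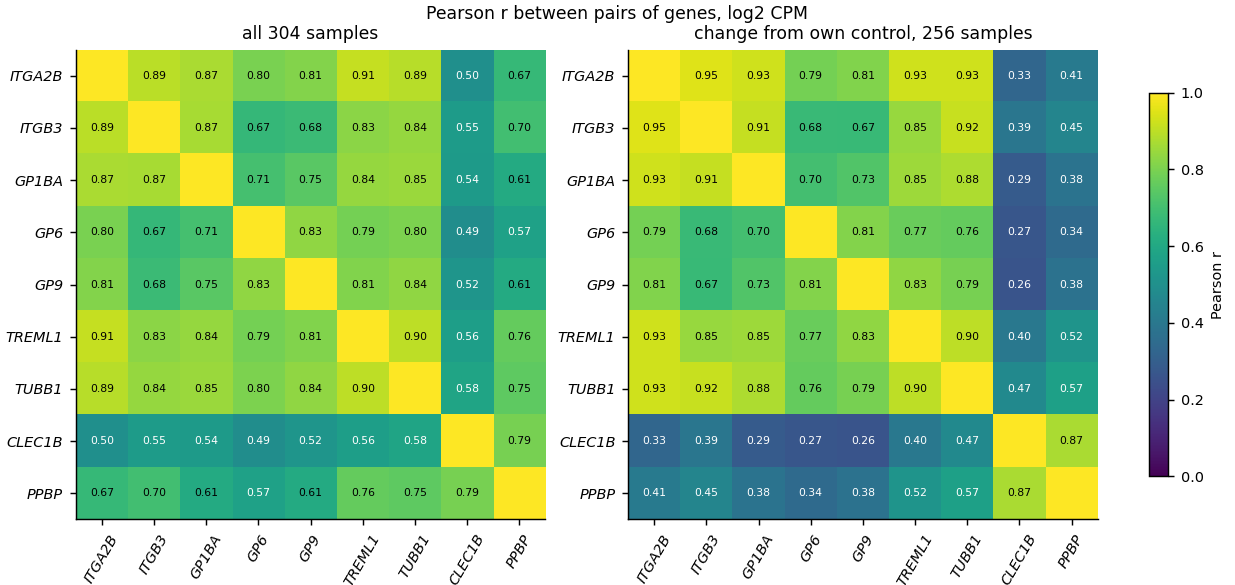
Pearson r between the 9 genes, of log2 CPM in all samples (left) and of the change from the animal's own control in all later samples of the animals with a control (right), from 0 to 1 by colour. CLEC1B and PPBP, in the last rows and columns, have an r of 0.79 (left) and 0.87 (right) with each other and lower values with the other 7 genes.

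The genes outside the 9 whose level followed their mean most closely over all samples (Pearson r with the mean of z-scored log2 CPM, 13742 genes compared) were ITGB5 (0.92), ESAM (0.92), ENDOD1 (0.91), SELP (0.91), MPIG6B (0.91), LTBP1 (0.90), F13A1 (0.90), GP5 (0.89), PTGS1 (0.89) and ARHGAP6 (0.88). SELP encodes P-selectin of the alpha granule, F13A1 the clotting factor that cross-links fibrin, GP5 a further part of the receptor for von Willebrand factor and PTGS1 the cyclooxygenase that aspirin inhibits in platelets. The lowest r of any of these 10 within a library series was 0.85 (ARHGAP6, series C), and 9 of them were in the lists of platelet genes, ITGB5 being the exception. Without the Day 40 sample of animal B2007 the r of the 10 ran from 0.87 to 0.92. The median r over all genes was -0.09, and 95 genes had an r over 0.7.

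The ratio of the 2 platelet factor 4 rows differed between animals far more than within them. The median ratio of PF4V1 to LOC703451 counts in an animal ran from 0.0666 to 1.36 over the 28 animals, a 20.5-fold range, whereas the highest and lowest samples of an animal differed by 2.05-fold in the median. Differences between animals held 91% of the variance of the log2 ratio over all samples, beside 40.4% of the variance of log2 CPM for the 9 genes (median). A ratio of 2 rows and the level of 1 gene are unlike measures, and the share for a ratio of 2 of the 9 genes is not given here. How much of this lies in the assignment of reads was not tested.

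**Figure D5:**
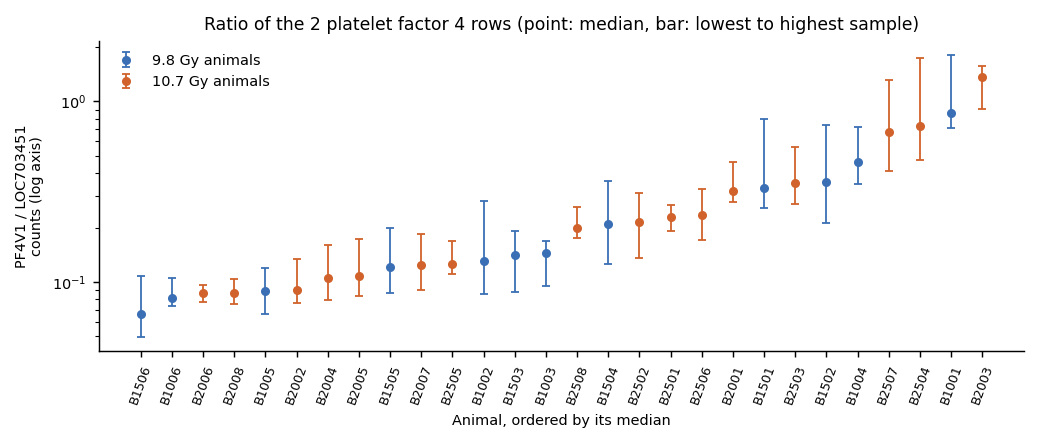
Ratio of PF4V1 to LOC703451 counts in each of the 28 animals on a log axis, ordered by the animal's median (point), with bars from its lowest to its highest sample. Medians run from 0.0666 to 1.36, and animals of both doses lie along the whole range.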

How the data were processed

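Bulk RNA-seq of whole blood was used as deposited. The authors trimmed reads with cutadapt 2.10, aligned them to Mmul_10 with STAR 2.7.6a and counted them with Subread 2.0.1, and deposited raw counts per gene. The second deposited table holds log2 values of counts that the authors scaled by the upper quartile of each sample. The paper also describes a conditional quantile normalization, which corrects for GC content, ahead of the log2 step. Whether it was applied to the deposited values was not tested. Whether strand was used in counting is not given in the sources used here.

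From the counts, genes reaching 3 counts in 80% or more of the samples were kept (13751 of 21070) and scaled by the upper quartile. Counts were summed per animal and period and tested with the quasi-likelihood test of edgeR 4.0.16 (R 4.3.3) with the animal as a block, because labels give each sample's animal. Differences between animals held 40.4% of the variance of log2 CPM (median of the 9 genes). A call needed a p, adjusted by Benjamini-Hochberg over all genes tested, no larger than 0.05 together with a change of 1.5-fold or more. Dose and sex differences were interaction terms, and sex was a covariate of the follow-up comparison. Alternatives were TMM scaling, DESeq2 1.42.0, no filter on low counts, no animal block, limma 3.58.1 on the deposited log2 values, the same library series only, the library series as a term, and leaving out each animal where few were drawn. The fit with the library series as a term took all samples singly, with the animal as a block. An animal's draws in a window then counted as separate samples, unlike in the main test. Leaving out the highest sample was added after the data were seen.

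The 10 genes and the other lists were chosen with earlier results of these data known. Named beside them were the 3 highest and 3 lowest called genes of each platelet list in the early and late windows, and the 10 genes most alike. A few items that this rule names, and 1 promoter, are not reported here. The scripts were tested on simulated data.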

Additional observations from a re-analysis of the deposited data

Results flagged for a closer look

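One value stood apart from the rest of its group. On Day 240 the log2 change of GP1BA from its own control was 1.72 in animal B2502 and -0.86 to -0.21 in the other 5 animals drawn that day. The gap to the nearest animal took 0.747 of the whole range of the 6 values, which is above Dixon's limit for a group of this size. In all, 45 groups of a gene and a day were looked at in this way, and chance flags about 5% of groups, so that 1 such value is no more than chance gives. The groups of a day share their samples, however. In the same sample ITGA2B (1.35) and ITGB3 (0.90) also lay above the other 5 animals, whose highest values were -0.10 and -0.40. So did GP9 (1.09), CLEC1B (1.17), TREML1 (1.46) and TUBB1 (0.72), where the highest values of the others were 0.36, 0.61, 0.81 and 0.25. Only GP6 (0.50) and PPBP (0.57) lay within the range of the others, whose highest values were 1.22 and 1.35. Animal B2502 was the single animal of 10.7 Gy drawn on that day.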

How the results depend on the processing

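No value turned its direction past the threshold under any alternative that was run. Except on Day 270, the counts of the 9 genes under the alternatives are given without the share of all genes called, which can differ between fits. In the early window 5 of the 9 genes were called higher, and 2 were with limma on the deposited log2 values and 2 with the library series as a term. In the medium window 0 were called, 2 within the same library series and 2 with the series as a term. The animals compared within the same series in that window were few and all of the higher dose. The fit with the series as a term did not sum an animal's draws. Over all scheduled days there were 27 calls higher and 1 lower. The higher calls came to 42 with DESeq2, 15 within the same library series (where late days could not be fitted) and 46 with the series as a term, and the lower calls to 2 with the series as a term. Between neighbouring days there were 10 calls higher and 19 lower, and the higher ones came to 21 with DESeq2, 16 without the filter on low counts and 6 with limma.

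The samples are paired by animal, as the labels state, so the animal was the replicate block of all comparisons within animals. Without the block 5 of the 9 genes were called in the late window in place of 9, 0 in place of 1 were called lower over the scheduled days, and 4 in place of 10 were called higher between neighbouring days. Leaving out each animal in turn gave 8 to 9 late calls. Among the scheduled days, only those from Day 180 on were refitted in this way. With the calls of the earlier days carried over unchanged, the totals were 26 to 33 higher and 1 to 2 lower. These totals therefore do not show how the calls before Day 180 depend on single animals. The 1 lower call added was that of ITGB3 on Day 240 without animal B2502. Without animal B1003, GP1BA was also called on Day 180.

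The scaling moved the median of all genes in the late window from -0.13 to -0.03 with TMM and -0.01 with DESeq2, and the higher calls over all genes from 1919 to 2270 and 2434, with 2548, 1887 and 1784 lower. Depth limits GP6 most, which had as few as 1 count in a sample. In 6 animals, the number drawn from Day 180 on, 1 animal can decide a call.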
